A study of Mus musculus with 17 samples.

Results

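Early thymic progenitors (ETP), the least mature T cell precursors of the thymus, were compared with natural killer cells (NK), mature lymphocytes of the innate immune system. The comparison rests on 4 of the 17 arrays of the series, the 2 titled ETP and the 2 titled NK, and covers 22180 mouse genes. Expression is given throughout on the log2 scale of the deposited array values, so that a difference of 1 is a 2-fold difference. Differences are ETP minus NK, and a negative one means a higher level in NK. The ETP arrays are labelled as thymus and the NK arrays as bone marrow, so tissue and cell type cannot be told apart. The other 13 arrays served for orientation. They hold the marrow populations HSC (stem cells), LMPP (lymphoid-primed multipotent progenitors), flt3+ CMP and flt3- CMP (myeloid progenitors), CLP (common lymphoid progenitors) and EILP (early innate lymphoid progenitors, 1 array), and the later thymocyte stage DN3.

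The study's design text describes sorted cells pooled from long-term chimeras, in which marrow of TCF-1 GFP reporter donors had reconstituted irradiated CD45.1 B6 hosts. It lists ETP and DN3 among the populations sorted but not NK, so whether the NK cells came from the same chimeras is not stated. No age, sex or other treatment is given for either population. Cells were pooled and nothing states that replicates came from separate animals. The p-values therefore speak for the spread between replicate arrays alone, which may be technical. That spread is shared over all 17 arrays and may be too small for ETP and NK. The median absolute difference between replicates was 0.24 in ETP and 0.23 in NK, against 0.16 to 0.20 in the other replicated populations. The 17 array medians lay between 4.45 and 4.62, and the median of all values was 4.54. Where 1 side of a comparison lies below that level the size of the difference is uncertain, and with 2 arrays a population the precision is limited (median standard error, SE, of a difference 0.20).

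ETP enter the thymus from the blood and receive Notch signals there, which direct them to the T cell fate, while for a time they keep the transcription of the multipotent cells they came from. NK cells develop mainly in the marrow under interleukin 15 and kill infected or transformed cells with granules of perforin and granzymes. Their activity is set by germline-encoded receptors, many of them lectin-like receptors of the Klr families. T and NK cells nevertheless share a good part of their signalling machinery, which is why genes held in common are described here beside those that differ.

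The labelled identities were checked first. NK arrays carried the defining NK genes at high level: Ncr1, the NKp46 receptor, measured 11.12 and 11.18 in NK and 4.79 and 4.55 in ETP. ETP arrays carried Kit, the stem cell factor receptor, at 9.22 and 9.09 against 5.32 and 6.23 in NK. Notch1 and its target Hes1 were also higher in ETP, as described further on. Other ETP markers were weak: Ccr9, a thymus homing receptor, measured 4.74 and 4.85, close to the median of all values, and Gata3, a T cell transcription factor, 6.01 and 5.10. Thy1, a surface protein of T cells, was at 6.37 and 6.75 in ETP, below the NK arrays. Replicates correlated at r = 0.973 in ETP and 0.977 in NK across genes, and an ETP with an NK array at 0.925 to 0.931.

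In all, 2490 genes (11.2%) differed at a Benjamini-Hochberg adjusted p under 0.05 in limma, here termed called. Of these, 1020 (4.6% of all genes) were higher in ETP and 1470 (6.63%) higher in NK. These shares over all genes are the background for every count of list members below. At least 2-fold differences were called for 552 genes higher in ETP (2.49%) and 868 higher in NK (3.91%). The median difference over all genes, ETP minus NK, was -0.0037. With only these 4 arrays in the fit, the count fell to 1049 genes, 391 higher in ETP and 658 higher in NK.

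Neutrophil transcripts were among the genes that differed most. Neutrophil granule genes were high on every marrow array, NK included, and low on the thymus arrays. Of 29 measured genes of a neutrophil list, 25 were higher in NK and none in ETP, with a median difference of -4.23. Camp, an antimicrobial granule peptide, measured 4.79 and 3.86 in ETP and 11.38 and 11.57 in NK. S100a8, a calcium-binding protein abundant in neutrophils, measured 6.67 and 5.40 in ETP and 12.37 and 12.34 in NK. Both genes separated the populations without overlap. The mean level of the list was 4.82 to 4.86 in ETP, 8.62 to 8.90 in NK, 7.82 to 9.89 on the other marrow arrays and 4.21 to 4.29 in DN3. Mpo, the primary granule enzyme myeloperoxidase, was an exception, at 9.91 and 9.74 in ETP and 9.48 and 10.09 in NK. The array cannot tell fewer cells of a type from less RNA per cell.

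A set of 402 genes was therefore put aside: the neutrophil list and all genes that correlated above 0.8 with the mean of Ltf, Camp and Ngp over the 13 marrow arrays. Since NK arrays took part in that choice, its counts are a description. The set held 251 genes called higher in NK and 3 called higher in ETP. It held 186 of the genes at least 2-fold higher in NK, a number that was 91 with a correlation above 0.9. Left were 549 genes at least 2-fold higher in ETP and 682 higher in NK, and the correlation between ETP and NK arrays without the set was 0.934 to 0.940. Other marrow cell markers moved the same way: 7 of 16 monocyte and macrophage genes, 6 of 14 B and plasma cell genes and 4 of 7 red cell genes were higher in NK and none higher in ETP. The mean level of the monocyte list was 4.48 to 4.55 in ETP and 5.58 to 5.68 in NK, and that of the B cell list 4.17 to 4.29 and 4.86 to 4.93. That of the red cell list was 5.55 to 5.66 in ETP, 7.5 to 7.52 in NK and 6.39 to 8.20 on the other marrow arrays. The monocyte count was 4 without NK replicate 1 or ETP replicate 2, and the B cell count 3 without NK replicate 2, 1 without ETP replicate 1 and 2 without ETP replicate 2. With only the 2 populations in the fit, 3 monocyte and 0 B cell genes were called in limma (8 of the 14 B cell genes had an unadjusted p under 0.05). With all probe sets tested, 2 B cell genes were called. The part of these cells in any single difference was not tested.

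**Figure D1:**
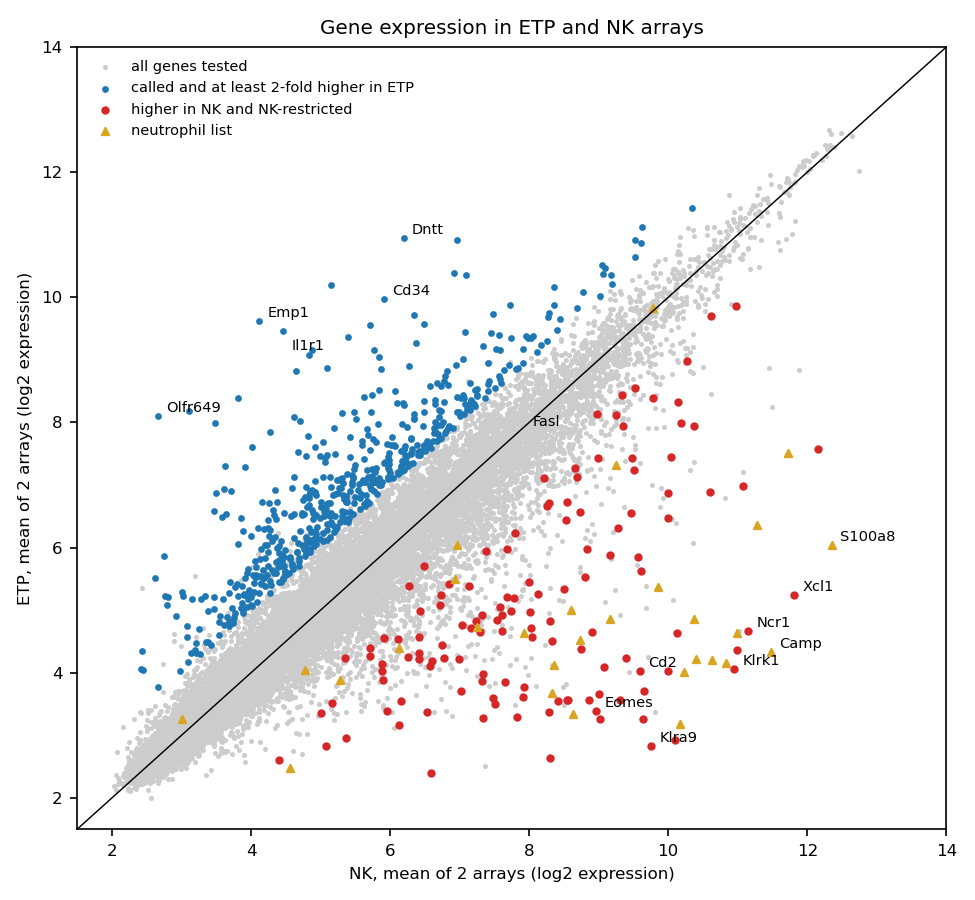
Mean log2 expression of each of 22180 genes in ETP (vertical axis) against NK (horizontal axis), 2 arrays each; the line marks equal levels. Killer lectin receptors such as Klrk1 and neutrophil genes such as Camp lie far to the lower right, Emp1 and Olfr649 far to the upper left, and Fasl lies on the line.

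To tell NK transcripts from marrow-wide ones, a called gene was termed NK-restricted where the lower NK array lay at least 1 log2 unit above each other marrow array. That held for 128 genes, while 1091 genes higher in NK outside the neutrophil set did not meet the rule. None of the 128 was in that set. This is no check on neutrophil transcripts, as genes high across the marrow arrays can hardly meet the rule. The rule for ETP was stricter: an ETP level at least 1 above every array of all other populations. It held for 16 genes. The NK rule does not look at the DN3 arrays, so these counts cannot be set against each other. Cd3g, for example, is NK-restricted at 7.55 and 7.80 in NK, while DN3 measured 11.66 and 11.62. Of the 682 genes at least 2-fold higher in NK, 521 had some other marrow population within 1 log2 unit of NK or above it, and for 266 this was true of all 6. Of the 549 genes at least 2-fold higher in ETP, 446 were likewise at that level in LMPP, 353 in DN3 and 53 in neither. For 155 of the 549 the NK mean, and for 179 of the 682 the ETP mean, lay below the median of all values.

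Among genes outside the neutrophil set and other than predicted genes, pseudogenes, small RNAs and receptor segments, those with the largest differences toward NK were mostly receptors. The 15 were chosen by size among genes whose ETP and NK arrays do not overlap, and 7 of them are Klr genes; Gm6637, a predicted gene left out of that choice, differed by -7.18. Klrk1 encodes NKG2D, an activating receptor for stress ligands, and measured 10.94 and 10.96 in NK and 4.16 and 3.96 in ETP. This is a difference of -6.89 ± 0.22 (SE), or 119-fold (adjusted p = 2.3e-10). Klra9, an inhibitory Ly49 receptor, measured 9.74 and 9.77 in NK and 2.91 and 2.73 in ETP. Klre1 (-6.63), Klri2 (-6.37), Klrc1 (-5.95), Klrc2 (-5.67) and Klrb1b (-5.30) followed the same pattern, but members of a Klr family share sequence and can cross-hybridise. Among receptors of other families, Il2rb, the chain through which interleukin 2 and interleukin 15 signal, measured 9.68 and 10.32 in NK and 4.0 and 4.05 in ETP. Cd226, an activating adhesion receptor, differed by -5.74 and Cd2, an adhesion molecule of T and NK cells, by -5.57. Samd3, a sterile alpha motif protein, differed by -5.75.

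Of 29 measured NK receptor genes, 26 were higher in NK, none was higher in ETP, and 21 were NK-restricted, with a median difference of -3.98. The list shares 2 genes with the neutrophil set. The exceptions were Cd160, Klrh1 and Cd244a, which were not called. A few members had a clear level in ETP as well. Il12rb2, a chain of the interleukin 12 receptor, measured 8.06 and 7.84 in ETP and 9.31 and 9.40 in NK. Il18rap, the accessory chain of the interleukin 18 receptor, measured 7.32 and 7.17 in ETP and 9.44 and 9.58 in NK. Klrd1, the CD94 partner of the NKG2 receptors, measured 7.58 and 6.38 in ETP and 11.03 and 11.11 in NK. In all 3 genes the ETP arrays lay below the NK arrays but above the median of all values.

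Effector genes divided. Among granule and death ligand genes 11 of 23 were higher in NK and none in ETP, with a median of -0.79. Gzma, a granule protease, measured 10.40 and 9.84 in NK and 4.92 and 4.35 in ETP. The DN3 arrays were also high for Gzma, at 9.34 and 8.98. Prf1, which encodes the pore former perforin, measured 7.35 and 8.20 in NK and 5.19 and 5.21 in ETP. Nkg7, a granule membrane protein, was high in both populations, at 10.84 and 11.11 in NK and 9.76 and 9.95 in ETP, and still differed by -1.12 ± 0.18. Srgn, the proteoglycan core of granules, was at 9.40 and 9.31 in ETP and 9.19 and 9.27 in NK. Of 16 cytokine genes, 6 were higher in NK, Csf2 among them (not called without NK replicate 1 or ETP replicate 1) and Ccl3 (not called without NK replicate 2). Xcl1, a chemokine that attracts dendritic cells, measured 11.84 and 11.78 in NK and 5.45 and 5.03 in ETP. Ifng, the gene of interferon gamma, measured 7.70 and 6.96 in NK and 3.44 and 3.10 in ETP. Il4, Il5, Il17a and Il22, cytokines of other innate lymphocytes, lay below the median of all values on all 4 arrays.

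**Figure D2:**
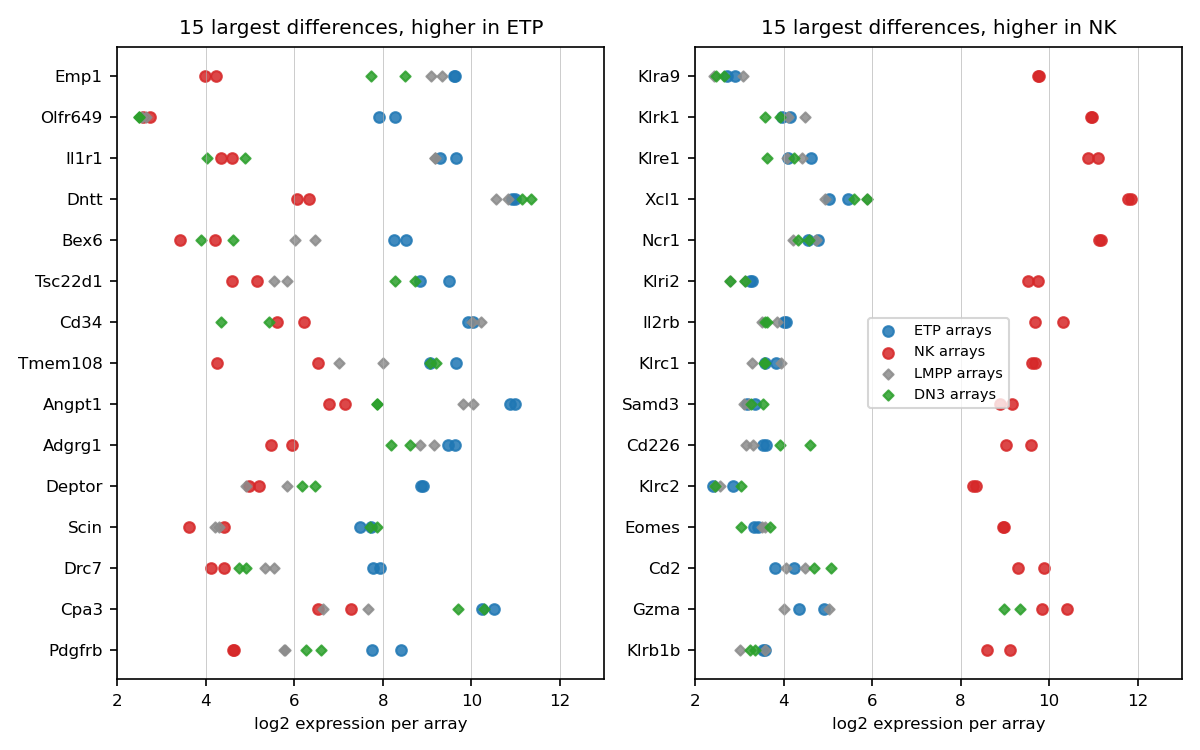
Log2 expression per array for the 15 genes with the largest differences in each direction, with ETP and NK as circles and LMPP and DN3 as small diamonds for orientation. In the left panel LMPP or DN3 often lie beside ETP, as for Dntt and Emp1; in the right panel NK stands alone except for Gzma, where DN3 is high.

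Short stretches of sequence before the start of the NK genes are shown because several of the largest differences share a motif there. RefSeq windows of 300 bases (250 before and 50 after the annotated start, build GRCm38.p6) were searched on both strands for the letters TGTGGT of RUNX factors, AGGAAGT of ETS factors, GGTGTGA of T-box factors, GTGGGAA of RBPJ, the DNA-binding partner of Notch, and CTTTGAT of TCF and LEF factors. The RUNX letters can overlap the T-box letters by their last 3 bases. Of 16990 genes with a window, 14.6% held the RUNX letters, against 14.9% of the 423 genes at least 2-fold higher in ETP, 16.5% of the 521 higher in NK and 32.3% (30 of 93) of the NK-restricted genes. For the ETS letters the shares were 9.28%, 8.27%, 12.1% and 18.3%, and for the T-box letters 3.77%, 3.78%, 3.45% and 7.53%. The RBPJ letters were in 6.19%, 5.91%, 5.76% and 6.45% and the TCF and LEF letters in 3.31%, 3.31%, 3.26% and 4.3%. These shares are descriptions without a test. The NK-restricted genes include several members of the Klr and Gimap families, whose windows need not be independent of each other. A match shows only that the letters are present, neither that a factor binds nor that it acts. Of the 15 genes named as higher in NK, 11 had a window and 7 of these held the RUNX letters: Klrk1, Klre1, Xcl1, Ncr1, Klrc1, Klrc2 and Gzma. The windows of 4 of them are given 5′ to 3′ along the gene, with matches to any of the 5 motifs in capitals; none of the printed matches overlaps another. The Klrk1 window is chr6:129623815-129624114 on the minus strand, that of Ncr1 chr7:4337465-4337764 on the plus strand, that of Xcl1 chr1:164935473-164935772 on the minus strand and that of Gzma chr13:113100932-113101231 on the minus strand.
Klrk1: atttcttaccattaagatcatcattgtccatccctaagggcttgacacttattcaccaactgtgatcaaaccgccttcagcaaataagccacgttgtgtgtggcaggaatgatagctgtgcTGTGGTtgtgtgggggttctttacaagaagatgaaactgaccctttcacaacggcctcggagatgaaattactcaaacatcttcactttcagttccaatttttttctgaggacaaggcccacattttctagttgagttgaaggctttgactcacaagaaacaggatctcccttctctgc
Ncr1: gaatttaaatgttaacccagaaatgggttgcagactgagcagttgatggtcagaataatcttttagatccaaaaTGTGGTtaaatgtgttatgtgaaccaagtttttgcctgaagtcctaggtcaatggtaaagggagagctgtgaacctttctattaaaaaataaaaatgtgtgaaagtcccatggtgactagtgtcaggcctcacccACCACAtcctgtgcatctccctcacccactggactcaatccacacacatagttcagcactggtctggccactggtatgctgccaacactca
Xcl1: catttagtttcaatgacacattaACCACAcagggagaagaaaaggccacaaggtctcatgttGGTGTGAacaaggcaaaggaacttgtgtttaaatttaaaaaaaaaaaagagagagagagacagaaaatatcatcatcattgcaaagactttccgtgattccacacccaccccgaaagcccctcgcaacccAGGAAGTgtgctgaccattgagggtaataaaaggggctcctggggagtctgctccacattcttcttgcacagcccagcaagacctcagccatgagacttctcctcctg
Gzma: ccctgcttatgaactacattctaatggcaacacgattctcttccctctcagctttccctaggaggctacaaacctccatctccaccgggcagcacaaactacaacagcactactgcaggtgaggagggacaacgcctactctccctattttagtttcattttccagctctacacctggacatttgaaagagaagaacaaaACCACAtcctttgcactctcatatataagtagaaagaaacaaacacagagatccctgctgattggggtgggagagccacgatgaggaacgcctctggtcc

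The transcription factors of innate lymphocytes also lay mostly toward NK, with 13 of 22 higher in NK, 2 higher in ETP and a median of -1.28. Eomes, a T-box factor required for NK maturation, measured 8.96 and 8.97 in NK and 3.42 and 3.34 in ETP. Its relative Tbx21 measured 6.73 and 6.76 in NK and 4.53 and 4.36 in ETP. Id2, an inhibitor of E proteins, measured 10.07 and 9.92 in NK and 6.12 and 6.81 in ETP. In all 3 both NK arrays lay above both ETP arrays, as in 23.3% of all genes. Toward ETP lay Ikzf2, the Ikaros family member Helios, at 8.29 and 8.36 against 6.82 and 6.74, and Tox at 8.60 and 7.66 against 7.23 and 6.91. Tox was not called without NK replicate 2 or without ETP replicate 1. Runx3, at 7.26 and 6.39 in ETP and 6.61 and 6.87 in NK, overlapped between the populations, as did Gata3.

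Genes higher in ETP combined those kept from multipotent progenitors with those of the T cell path. Emp1, an epithelial membrane protein, had the largest difference, with 9.63 and 9.61 in ETP and 4.24 and 3.99 in NK (5.51 ± 0.53 SE, adjusted p = 9.5e-06). LMPP and DN3 were high for Emp1 as well, at 9.34 and 9.08 and at 8.49 and 7.72. Il1r1, the interleukin 1 receptor, measured 9.29 and 9.64 in ETP and 4.34 and 4.58 in NK, and LMPP lay beside ETP at 9.18 on each array. Tsc22d1, a transcriptional regulator, measured 8.83 and 9.48 in ETP and 5.16 and 4.58 in NK, and here DN3 lay beside ETP at 8.72 and 8.27. Angpt1, the ligand angiopoietin, measured 10.97 and 10.86 in ETP and 7.14 and 6.78 in NK. Cpa3, a carboxypeptidase known from mast cells, measured 10.52 and 10.25 in ETP and 7.29 and 6.54 in NK. Deptor, an inhibitor of mTOR, measured 8.90 and 8.85 in ETP and 5.21 and 4.98 in NK, and Pdgfrb, a growth factor receptor, 8.41 and 7.75 against 4.62 and 4.63. These last were 2 of the 16 genes restricted to ETP. The other genes named by rule were Bex6 (4.58), Tmem108 (3.97), Adgrg1 (3.84), Scin (3.59) and Drc7 (3.59), all chosen as not overlapping. Tmem108 had NK arrays at 4.25 and 6.53, and its difference was 2.83 without NK replicate 1 and 5.11 without NK replicate 2. With the probe sets of a gene averaged, the differences were smaller for Tmem108 (2.17), Emp1 (3.92), Tsc22d1 (2.99), Angpt1 (2.88) and Deptor (3.11).

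Of 20 measured genes of stem and multipotent progenitors, 11 were higher in ETP and none in NK, with a median of 1.34. Cd34, a surface sialomucin of stem and progenitor cells, measured 10.03 and 9.92 in ETP and 5.60 and 6.23 in NK, a difference of 4.06 ± 0.31. Flt3, a receptor of early lymphoid progenitors, measured 7.75 and 8.55 in ETP and 5.12 and 5.50 in NK. Bcl11a, a factor of early lymphoid progenitors, measured 9.24 and 9.30 in ETP and 7.07 and 5.67 in NK. Erg (3.21), Hoxa9 (2.58), Etv6 (2.36), Meis1 (1.67), Lyl1 (1.44), Hmga2 (1.43) and Mycn (1.24), all transcriptional regulators of stem or progenitor cells, completed the group with Kit. Hmga2 was not called without NK replicate 1, NK replicate 2 or ETP replicate 1. The myeloid and lymphoid regulator Spi1, at 6.90 and 7.35 in ETP and 6.60 and 7.02 in NK, overlapped. On DN3 arrays the mean level of the list was 5.14 to 5.15, against 7.27 to 7.34 in ETP and 5.87 in both NK arrays.

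Of 19 measured genes of the Notch pathway, 6 were higher in ETP and 1 in NK, with a median of 0.24. With only the 2 populations in the fit, 3 were higher in ETP. Hes1, a repressor induced by Notch, measured 7.42 and 7.51 in ETP and 4.92 and 5.06 in NK (2.47 ± 0.14, adjusted p = 7.5e-08). Notch1 itself measured 7.90 and 8.06 in ETP and 6.16 and 5.50 in NK. Il2ra, the CD25 chain that marks later thymocytes, measured 6.91 and 6.47 in ETP and 4.82 and 4.85 in NK, while DN3 had a mean of 10.93. In these 3 genes both ETP arrays lay above both NK arrays, as in 21.1% of all genes. Myc (0.70), Mfng (1.28) and Notch3 (0.59) were smaller differences. Without 1 array the call was lost for Myc (ETP replicate 1), Mfng (NK replicate 1 or ETP replicate 1) and Notch3 (NK replicate 1, NK replicate 2 or ETP replicate 2). The target genes Dtx1, at 4.96 and 5.20 in ETP and 4.86 and 4.82 in NK, and Nrarp, at 5.01 and 4.89 in ETP and 5.26 and 5.78 in NK, were not called. Lfng, a glycosyltransferase that modifies Notch receptors, was the member higher in NK, at 7.92 and 8.64 against 6.72 and 6.69.

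T lineage genes did not lie to one side: of 22 measured, 5 were higher in ETP and 7 in NK, with a median of -0.02. The 5 were those of antigen receptor assembly and early T signalling. Dntt, the enzyme that adds nucleotides at receptor gene joints, measured 10.92 and 10.98 in ETP and 6.33 and 6.06 in NK. Rag2, a subunit of the recombinase, measured 7.74 and 6.83 in ETP and 3.93 and 3.91 in NK. Trat1 (1.55), Themis (0.78) and Cd5 (0.70) were also called, but Cd5 lost the call whichever of the 4 arrays was left out. The 7 higher in NK included CD3 chains, surface proteins and a kinase. With only the 2 populations in the fit the counts were 2 higher in ETP and 7 in NK. Thy1 measured 9.19 and 9.72 in NK, a difference of -2.90 from the ETP values above. Cd3d, a chain of the CD3 complex, measured 8.09 and 8.16 in NK and 4.71 and 5.80 in ETP, and Cd3g 7.55 and 7.80 in NK and 5.69 and 4.74 in ETP. DN3 was higher than either, with a mean of 11.64 for Cd3g. Lef1 (-2.35), Cd28 (-1.81) and Zap70 (-1.44), with Cd2, completed this group. Bcl11b, the T cell commitment factor, measured 4.72 on both ETP arrays and 4.72 and 4.79 in NK against a mean of 8.84 in DN3, and Cd3e and Ptcra were likewise not called between ETP and NK.

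Signalling genes used by both lineages were called in both directions. Of 22 ITAM adaptor and proximal kinase genes, 11 were higher in NK and 3 in ETP, with a median of -0.70, and 3 of the 22 belong to the neutrophil set. Txk, a kinase of the Tec family, measured 7.83 and 8.73 in NK and 3.37 and 3.36 in ETP. Fcer1g, the adaptor of Fc receptors and of NKp46, measured 10.91 and 11.25 in NK and 7.51 and 6.89 in ETP, but was also high in CLP (mean 10.79). Plcg1 and Btk lay toward ETP: Plcg1, a phospholipase of T cell receptor signalling, measured 6.61 and 6.48 in ETP and 4.57 and 4.38 in NK. Btk, another Tec family kinase, measured 8.27 and 7.87 in ETP and 6.59 and 6.09 in NK. Of 30 genes known from both T and NK cells, 16 were higher in NK and 3 in ETP, with a median of -0.88. The 16 included 6 of the Gimap GTPases, led by Gimap4 at 9.06 and 9.73 in NK and 4.23 and 4.24 in ETP; these family members too can cross-hybridise. Cd27, a co-stimulatory receptor, was higher in ETP, at 9.05 and 9.27 against 7.49 and 7.67. The other members higher in ETP, Runx1 and Tox, were not called without NK replicate 2, which left a count of 1, as did the fit of only the 2 populations. Of 18 trafficking receptors 6 were higher in NK and none in ETP, among them Ccr2 (-4.65) and S1pr1 (-2.00), and 2 of the 18 belong to the neutrophil set. Of 13 Bcl2 family genes 3 were higher in NK, Bcl2 itself at 9.39 and 9.37 against 7.27 and 7.5. Over all genes, 6.63% were higher in NK and 4.6% higher in ETP.

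**Figure D3:**
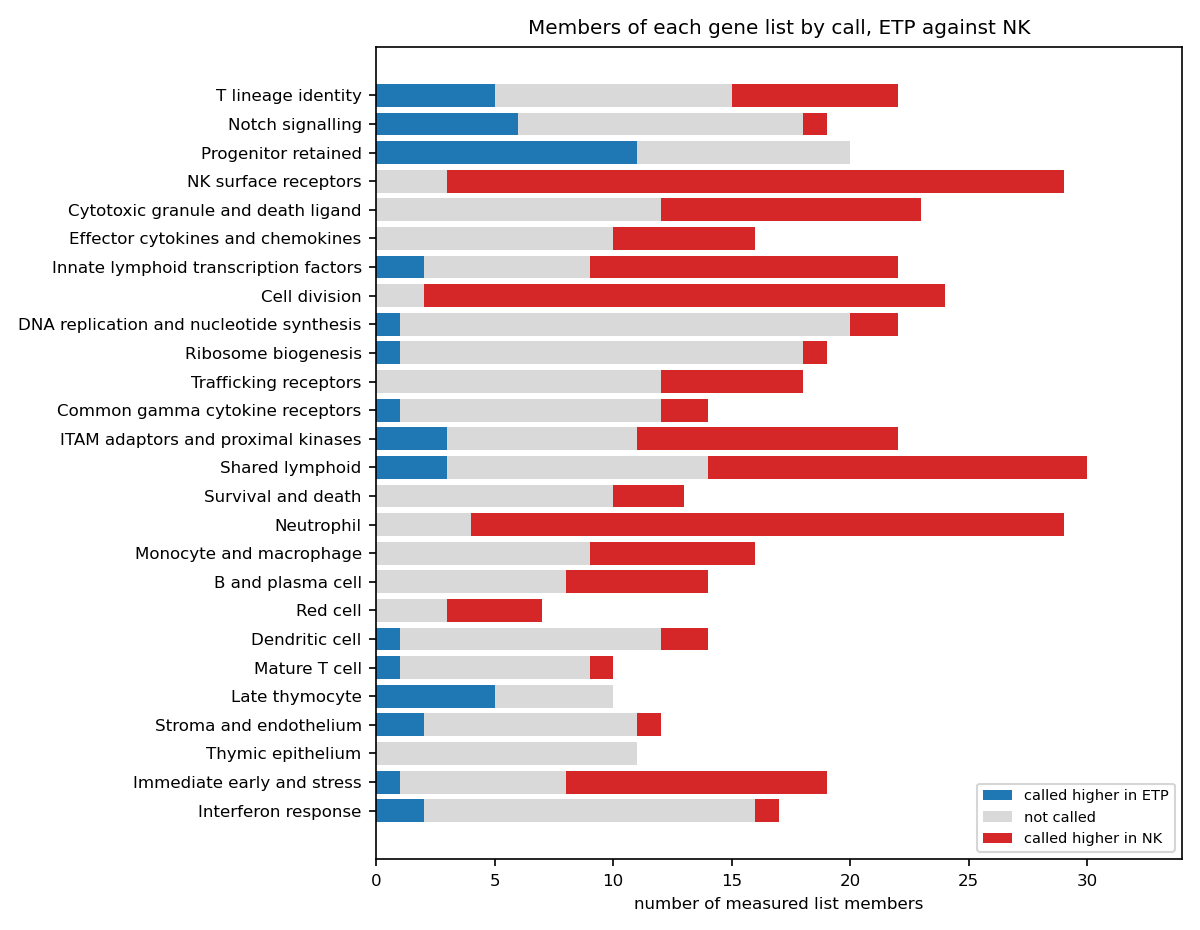
Number of measured members of each of 26 gene lists that were called higher in ETP, called higher in NK or not called. NK receptors, cell division and neutrophil genes lie almost wholly toward NK, progenitor genes only toward ETP or not called, and T lineage genes toward both. Over all genes tested, 4.6% were called higher in ETP and 6.63% higher in NK.

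Mitosis genes were lower in ETP than in NK, and lower than in the other populations as well. Of 24 measured, 22 were higher in NK and none in ETP, with a median of -1.36, and none was NK-restricted. Mki67, a marker of dividing cells, measured 8.95 and 8.82 in ETP and 10.44 and 10.56 in NK. Ndc80, a kinetochore protein, measured 6.37 and 5.85 in ETP and 8.41 and 8.54 in NK. Aurkb and Kif20a were not called. The mean level of the list was 6.90 to 6.94 in ETP and 8.25 to 8.38 in NK, against 8.01 to 9.04 on the other marrow arrays and 8.52 to 8.59 in DN3. DNA replication genes differed less between ETP and NK, with a median of -0.20, but were lower in both than in the other populations. Their mean level was 7.264 and 7.275 in ETP and 7.345 and 7.552 in NK. It was 7.615 to 8.285 on the other marrow arrays and 8.201 to 8.218 in DN3. Of 22 genes, 2 were called higher in NK (Rrm1 and Rrm2, both subunits of ribonucleotide reductase). Higher in ETP was 1 (Gins2, not called without NK replicate 1 or ETP replicate 1). Without NK replicate 1, 4 were higher in NK. Ribosome biogenesis had 1 gene called in each direction among 19 and a median of 0.14, and 3 higher in ETP after quantile normalization. Over all genes, 4.6% were higher in ETP and 6.63% higher in NK. The few calls among replication and ribosome genes are near those shares and are not read as a result about these lists. Of 19 immediate early and stress genes, which respond quickly to handling of cells, 11 were higher in NK and 1 in ETP, with a median of -0.92. The list shares 3 genes with the neutrophil set. The count higher in NK was 7 without NK replicate 2, 6 without ETP replicate 1 and 5 with only the 2 populations in the fit, and the mean level of the list was 5.85 and 6.31 in ETP and 6.84 and 6.95 in NK. Of 17 interferon response genes 2 were higher in ETP and 1 in NK, or 3 in NK without NK replicate 1.

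Genes at like levels in both populations were then sought, as those whose 4 ETP and NK values all exceeded the 8 arrays of HSC, LMPP and both CMP populations. This held for 439 of the 22180 genes, of which 394 differed by less than 1 log2 unit between ETP and NK. Small differences are common on these arrays. Over all genes, calls of at least 2-fold made up 2.49% toward ETP and 3.91% toward NK. The count of 394 is therefore not read as a sign of shared expression. The rule leaves out CLP, EILP and DN3, so such a gene may be as high there. Rasa2, for example, measured 7.80 on both CLP arrays and 7.77 on the EILP array. It measured 7.88 and 7.78 in NK and 8.10 and 8.19 in ETP. Fasl stood apart from all others. It encodes Fas ligand, which triggers death of cells that carry Fas, and measured 7.77 and 7.98 in ETP and 7.89 and 7.96 in NK. On each of the other 13 arrays, DN3 and EILP included, it lay between 3.62 and 3.97. ETP minus NK was -0.05 with a 95% interval of -0.37 to 0.26. The window at its start, chr1:161788446-161788745 on the minus strand in GRCm38.p6 by RefSeq, held 1 match to the ETS letters on the opposite strand, shown in capitals, and none to the other 4 motifs.
Fasl: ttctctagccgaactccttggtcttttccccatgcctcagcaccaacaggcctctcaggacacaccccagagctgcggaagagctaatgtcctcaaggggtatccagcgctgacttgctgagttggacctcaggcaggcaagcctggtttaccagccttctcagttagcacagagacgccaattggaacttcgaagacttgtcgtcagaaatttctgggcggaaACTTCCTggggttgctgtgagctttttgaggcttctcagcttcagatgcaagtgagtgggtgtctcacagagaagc

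The other shared genes named by rule had narrower gaps to the progenitors, and the choice of genes by level allows no test. Cd96, an adhesion receptor of T and NK cells, measured 8.14 and 8.41 in ETP and 9.02 and 8.76 in NK, and was high in DN3 (mean 9.19). Cd244a, the SLAM family receptor 2B4, measured 8.36 and 7.80 in ETP and 7.71 and 8.54 in NK, against a mean of 4.70 in DN3. Grap2, an adaptor of T cell receptor signalling, measured 6.63 and 6.61 in ETP and 5.74 and 6.80 in NK, with DN3 at a mean of 8.35. In each of these the populations lay close or overlapped. Evl, Gpr132, Il10ra, Rasa2, Nsun6 and Cd160 were also not called, although Evl and Cd160 were called without NK replicate 1 (higher in NK). Without NK replicate 2 the difference for Cd160 was 0.04. Itgal, the LFA-1 integrin chain, Ugcg, Itpr2, Setbp1 and Irf2bpl differed by less than 2-fold but were called higher in NK, and each lost the call without at least 1 array. Without the limit on the difference, 7 genes had a gap of at least 1 to the progenitor arrays: Fasl, Cd7, Gpr174, Khdc1a, Gm2808, Sytl3 and Ppp3cc. Cd7, a surface protein of T and NK cells, measured 8.04 and 8.73 in ETP and 9.41 and 10.15 in NK, against a mean of 4.91 in DN3 and 6.55 on the EILP array. It was called higher in NK, but not without NK replicate 2 or without ETP replicate 1.

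**Figure D4:**
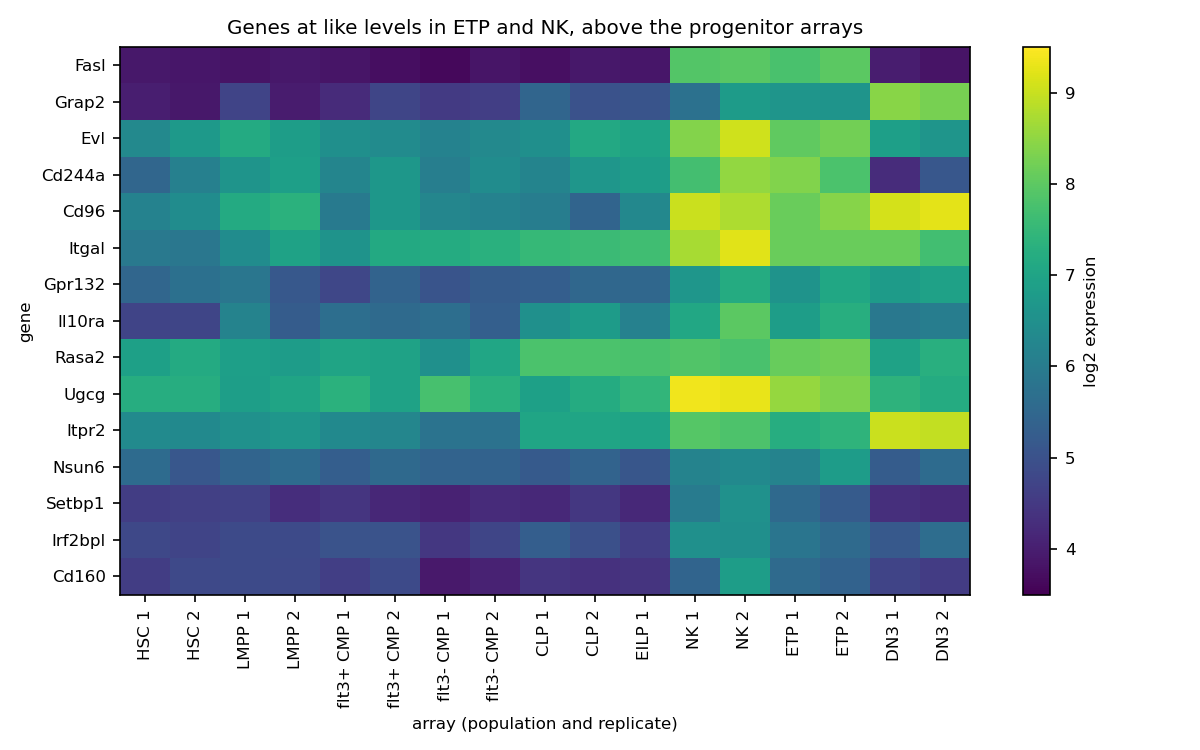
Log2 expression (colour) of the 15 shared genes named by rule on all 17 arrays, ordered by population. Fasl is bright on the 2 NK and 2 ETP arrays alone, while Cd96, Grap2 and Itpr2 are also bright in DN3.

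A run of neighbouring genes on chromosome 7 was high in ETP alone. Olfr649, an olfactory receptor gene, had the second largest difference of all named genes toward ETP, with 8.28 and 7.92 in ETP and 2.58 and 2.74 in NK (5.44 ± 0.17, adjusted p = 1.7e-10). No array of the other 15 exceeded 2.76. The 3 genes measured next to it on one side in the RefSeq order, Olfr648, Olfm5 and Ubqlnl, were also among the 16 restricted to ETP. Olfr648 measured 5.71 and 6.02 in ETP and 2.96 and 2.53 in NK. Olfm5, an olfactomedin family gene, measured 8.47 and 8.35 in ETP and 5.63 and 5.60 in NK. Ubqlnl, a ubiquilin-like gene, measured 7.16 and 5.92 in ETP and 3.45 and 3.83 in NK. On one side the run ended at Trim6, the next gene after Olfr649, which differed by 0.30 and was not called. On the other side differences became smaller without a sharp end. Ubqln5, before Ubqlnl, differed by 0.60 (adjusted p = 0.042 in limma), with ETP at 4.77 and 4.22 and no other array above 3.97. Olfr646, before Ubqln5, was not called but measured 5.33 and 5.02 in ETP, with no other array above 4.85. Among the 1105 olfactory receptor genes tested, 13 were higher in ETP, 4 higher in NK and 5 at least 2-fold higher in ETP. Each is a smaller share than over all genes, where it was 4.6%, 6.63% and 2.49%. Probe sets of these related genes can cross-hybridise. The other genes restricted to ETP included Sstr2 (3.31), a somatostatin receptor, Mcpt2 (2.89), a mast cell protease, Il31ra (2.59), a cytokine receptor, Igf2bp3 (2.00), an RNA-binding protein, and Glis3 (1.53), a zinc finger factor.

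**Figure D5:**
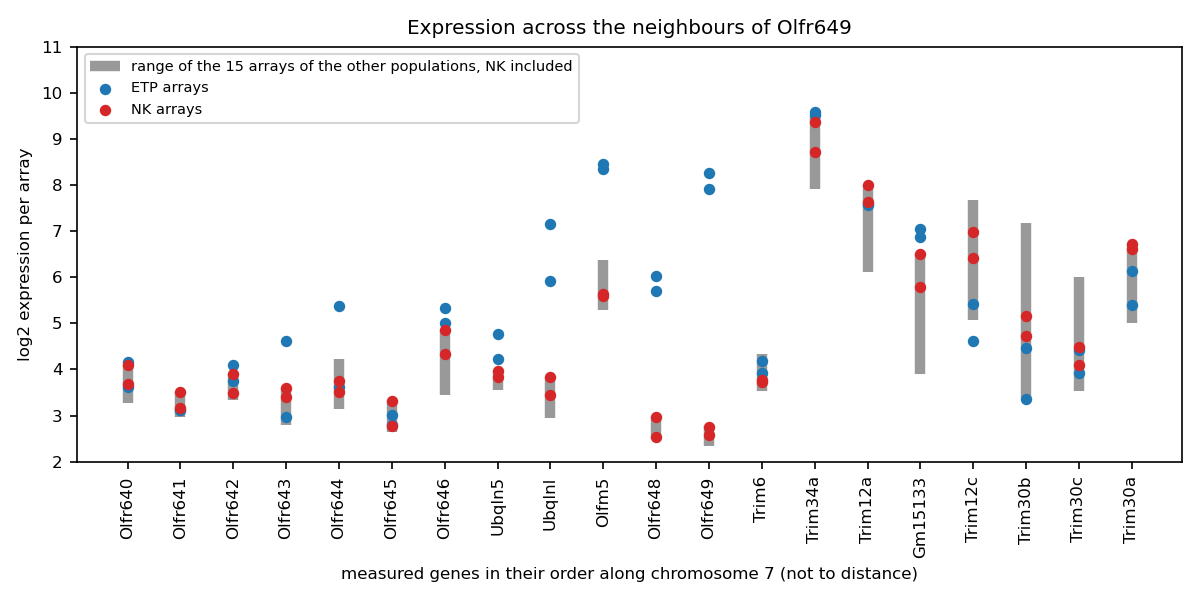
Log2 expression per array of 20 measured genes in their order along chromosome 7, with ETP and NK as points and the range of the 15 arrays other than ETP as grey bars. ETP lies above the grey range by more than 1 unit on both arrays from Ubqlnl to Olfr649 and near or within it for most other genes.

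DN3 and LMPP share no array with ETP and NK and bracket the T cell path. The 2 comparisons are still not independent, as each gene has the same fitted spread in both. A gene of small spread is more easily called in both. DN3 against LMPP is also thymus against marrow, as ETP against NK is, so tissue cannot be told apart here either. Between them 7.97% of genes were called, 3.77% of all genes higher in DN3 and 4.2% higher in LMPP. Of the 549 genes at least 2-fold higher in ETP, 53 (9.65%) were higher in DN3 and 122 (22.2%) higher in LMPP. Of the 682 at least 2-fold higher in NK, 68 (9.97%) were higher in DN3 and 139 (20.4%) higher in LMPP. The NK-restricted genes were 29 of 128 (22.7%) higher in DN3 and 14 (10.9%) higher in LMPP, but the rule that chose them already asks for a low LMPP level. Leaving out single arrays lowered the counts over all genes: to 481 and 455 higher in DN3 without DN3 replicate 1 or 2 and 378 without LMPP replicate 1, from 836, and to 602 to 618 higher in LMPP, from 931. For the genes higher in ETP the count toward LMPP then lay between 74 (without LMPP replicate 2) and 91, and was 81 without DN3 replicate 2; for those higher in NK it was 92 without LMPP replicate 1 and 89 without DN3 replicate 1. Toward LMPP, the NK-restricted count was 9 and 7 without LMPP replicate 1 or 2 and 8 without DN3 replicate 1. Between EILP and CLP 0.365% of all genes were called, 0.0406% higher in EILP and 0.325% higher in CLP. Of the genes at least 2-fold higher in ETP 3 were higher in EILP and 14 in CLP, and of those higher in NK 1 and 14. EILP has 1 array, which the fit assumes to vary like the others.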

How the data were processed

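Trizol-extracted RNA of 9 sorted populations was amplified with NuGEN reagents and hybridised to 17 Affymetrix arrays (Mouse Gene 2.0 ST), per the labels. The authors deposited log2 expression values per probe set, made with Affymetrix Expression Console per the submitters' processing notes; neither its version nor its algorithm is stated (not given in the sources used here). Of 41345 probe sets, 23521 carry 1 gene symbol in the annotation given and were used, 1814 carry several and 16010 none. For 1082 genes with several probe sets that of highest mean level over the 17 arrays stood for the gene, leaving 22180 genes. Tcf7 is not analysed here.

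All 17 arrays entered 1 fit of population means by limma 3.58.1 (R 4.3.3), whose eBayes step had 5.33 prior beside 8 residual degrees of freedom, without a replicate block, and two-sided p-values were adjusted by the Benjamini-Hochberg method over all genes. No filter on low values was applied. On simulated data of this design, 69% of genes changed by 1 log2 unit and 99% of genes changed by 2 were called. There were 6 false calls among 21980 unchanged genes. The simulation drew independent values with the same spread in all populations, as the fit assumes. It therefore does not measure the false calls in the real data. Replicate numbers were not treated as pairs. Deviations of ETP replicate 1 and NK replicate 1 from their means correlated at 0.0499, which cannot exclude that arrays of the same number share a batch.

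Genes were named by rule: the 15 largest called differences in each direction of at least 2-fold without overlap between the 4 arrays, outside the neutrophil set, and leaving out predicted, small RNA, pseudogene and receptor segment genes; the 15 shared genes with the largest gap to the progenitor arrays; and members of the gene lists. These members and lists were chosen with earlier results of these data known. Counts of list members use calls over all genes, and of 209 list members called, 45 lost the call without 1 of the 4 arrays. Alternatives tried were other scaling, filters, probe set rules, variance priors, samples in the fit and single arrays left out.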

Additional observations from a re-analysis of the deposited data

How the results depend on the processing

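All 30 named genes kept their direction and call in each of the 12 alternatives run. With only the 2 populations in the fit, the 1049 genes called for ETP against NK were 391 higher in ETP and 658 higher in NK; for EILP against CLP no gene was called in limma, higher in EILP (0) or in CLP (0), where 2474 had an unadjusted p under 0.05, so those calls rest on the spread of the other populations. Genes higher in EILP than CLP numbered 5 with arrays centred on their medians and 36 over all probe sets, against 9. Leaving out 1 array at a time gave 1701 to 2231 genes for ETP against NK (720 to 921 higher in ETP, 981 to 1435 higher in NK), 996 to 1189 for DN3 against LMPP (378 to 571 higher in DN3, 602 to 618 higher in LMPP) and 48 to 57 for EILP against CLP (6 to 7 higher in EILP, 42 to 50 higher in CLP). A fit with the replicate number as a block gave 1048 genes higher in ETP and 1461 higher in NK, and 822 higher in DN3 and 923 higher in LMPP. This changed no count by over 1.5 times. Leaving the neutrophil set out before adjustment, an alternative chosen after seeing the data, gave 984 genes higher in ETP and 1169 higher in NK. Centring and quantile normalization gave 1128 and 1362 genes higher in ETP and 1359 and 1371 higher in NK. Of the values of the 15 shared genes under these alternatives, 159 kept their side of the threshold, 19 lost a call and 2 gained one. Low signal limits the size of differences, as 155 of the 549 and 179 of the 682 have a side below the median of all values.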

Other observations

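Among the 16010 probe sets without a gene symbol, 447 were called higher in ETP and 243 higher in NK when all probe sets of the table were tested together. They are not named here. Co-receptor genes of later T cells were low in both populations: Cd4 lay at 4.07 on both ETP arrays and at 3.83 and 4.31 in NK, and Cd8b1 at 3.57 and 3.43 in ETP and 4.22 and 3.64 in NK, all below the median of all values. Late thymocyte genes had 5 of 10 members higher in ETP and none in NK, and 3 higher in ETP with only the 2 populations in the fit. Besides Dntt, Rag2, Themis and Cd5 these were Arpp21, an early thymocyte gene, at 7.02 and 6.80 in ETP and 3.70 and 3.72 in NK, with a mean of 8.65 in DN3. Icos, a co-stimulatory receptor, differed more between replicates than between populations, at 7.55 and 5.98 in ETP and 6.09 and 7.34 in NK.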
